A study of Mus musculus with 2 samples.

Results

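The genes described here are those of the proteasome, taken as every gene whose symbol begins with *Psma*, *Psmb*, *Psmc*, *Psmd*, *Psme* or *Psmg*. Of the 27998 genes in the tables, 49 matched, and 47 of them reached 20 unique molecular identifiers (UMIs, 1 per captured transcript) over both libraries, as did 13184 genes in all. The members left out by that limit were *Psma8*, with 1 UMI in cKO and 6 in Ctrl cells, and *Psmb11*, with 1 and 0. Just inside it lay *Psmb9*, with 32 UMIs in cKO and 33 in Ctrl cells. The match also takes in *Psmc3ip*, which encodes a meiotic recombination cofactor and no proteasome subunit, and it misses subunits with other names. Those are summed with assembly factors further below, where only the genes past 1.2-fold are named.

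The study asked how loss of METTL3, the catalytic subunit of the enzyme that methylates adenosines in mRNA, alters cell fates in the developing skin epithelium. Single-cell 3′ tag libraries were made from YFP+ cells sorted from the back skin of C57BL/6 mouse embryos on embryonic day 17. The study also gated these cells on surface integrins to enrich for progenitors. Cells from outside the basal layer are thus only those that passed this gate. The cKO library carried *Mettl3* fl/fl with Rosa16-YFP fl/+ and K14Cre, and the Ctrl library carried *Mettl3* fl/+ with the same reporter and Cre, so the Ctrl cells too could lose 1 *Mettl3* allele. Rosa16-YFP is the spelling of the sample labels, whereas the paper writes Rosa26-YFP. K14Cre is active in the keratin 14 lineage, which is the skin epithelium, and the reporter marks cells in which it has acted. There was 1 library per group and the number of embryos behind each is not given in the sources used here. No test between groups is therefore possible: intervals below are 95% intervals for counting error only, and a difference between libraries is a difference between these 2 libraries.

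Barcodes with at least 1800 detected genes were kept as cells, 3577 in the cKO and 4447 in the Ctrl library, with 34116275 and 43874554 UMIs. The median cell held 8581 UMIs in cKO and 8941 in Ctrl, with median mitochondrial shares of 5.01% and 4.66%. Only 16 barcodes were kept in both libraries, against 21.6 expected by chance. *Mettl3* itself had 211 UMIs in cKO and 557 in Ctrl cells, or 6.18 and 12.7 CPM (UMIs per 1000000 UMIs of the library), but its 3′ tags lie outside the deleted exon and so do not check the deletion. *Xist*, the RNA that coats the inactive X chromosome of female cells, had 1 UMI in cKO and 89523 in Ctrl cells. The libraries thus differ in the sex make-up of their embryos as well as in genotype, and for every ratio below these cannot be told apart; *Psmd10* is the only X-linked member.

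Proteins tagged with ubiquitin are broken down by the 26S proteasome, a barrel-shaped 20S core capped by a 19S regulatory particle. In the core, outer rings of α subunits gate the entry and inner rings of β subunits hold the proteolytic sites. In the cap, a ring of ATPases unfolds the substrate and non-ATPase subunits bind and remove ubiquitin, while alternative activators and a set of chaperones open or assemble the particle. In mammalian cells the subunit genes are known to be induced together by the transcription factor encoded by *Nfe2l1* when proteasome activity drops, and interferon induces alternative catalytic subunits.

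Promoter sequences of the members were searched for motifs tied to this regulation. RefSeq windows on GRCm38.p6, running from 250 bases before to 50 after the annotated start, were found for 40 members in 43 windows. The letters TGACNNNGC on either strand, the core of the antioxidant response element to which the *Nfe2l1* and *Nfe2l2* products bind, were present in 13.95% of member windows, 14.1% of windows of measured genes and 12.4% of all 32851 windows. They occurred in 6 members, *Psmb5*, *Psmb6*, *Psmc6*, *Psmd9*, *Psmd12* and *Psme4*. The letters CCAAT were found in 32.6% of member windows and 37.4% of all. CCGGAAG, a sequence bound by ETS-family factors, was found in 37.2% of member windows, 17.0% of windows of measured genes and 8.86% of all windows. 4 windows are printed as the 250 bases before the start site, because they belong to 2 catalytic core subunits that hold the first motif and to the cap subunits with the lowest cKO over Ctrl ratios. Capitals mark TGACNNNGC in *Psmb5* (chr14:54617996-54618245, minus strand) and *Psmb6* (chr11:70525107-70525356, plus strand) and CCGGAAG in *Psmd6* (chr14:14120946-14121195, minus strand). *Psmc4* (chr7:28050093-28050342, minus strand) held neither.
Psmb5: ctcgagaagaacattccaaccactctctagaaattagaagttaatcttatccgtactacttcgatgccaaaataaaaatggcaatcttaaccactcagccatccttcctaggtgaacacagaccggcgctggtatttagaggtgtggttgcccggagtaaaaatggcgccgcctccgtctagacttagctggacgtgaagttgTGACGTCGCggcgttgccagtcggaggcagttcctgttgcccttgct
Psmb6: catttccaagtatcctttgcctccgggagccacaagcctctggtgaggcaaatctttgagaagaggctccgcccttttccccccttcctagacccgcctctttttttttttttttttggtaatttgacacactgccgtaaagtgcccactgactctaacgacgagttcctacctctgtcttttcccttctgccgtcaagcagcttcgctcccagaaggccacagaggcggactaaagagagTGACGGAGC
Psmd6: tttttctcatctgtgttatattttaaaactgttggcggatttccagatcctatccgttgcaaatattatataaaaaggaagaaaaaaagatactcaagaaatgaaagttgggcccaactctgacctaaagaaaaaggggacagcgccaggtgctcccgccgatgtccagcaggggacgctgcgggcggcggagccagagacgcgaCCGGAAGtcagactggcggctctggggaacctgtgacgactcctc
Psmc4: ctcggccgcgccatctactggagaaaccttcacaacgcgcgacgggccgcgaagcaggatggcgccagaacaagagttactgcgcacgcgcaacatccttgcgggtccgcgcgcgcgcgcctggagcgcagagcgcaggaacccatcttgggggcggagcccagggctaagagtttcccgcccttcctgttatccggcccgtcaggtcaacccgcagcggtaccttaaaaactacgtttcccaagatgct
The first motif ended at the base before the annotated start in *Psmb6* and began 47 bases before it in *Psmb5*. The median cKO over Ctrl ratio was 0.909 for the 6 members with TGACNNNGC and 0.883 for the 34 with a window that lacked it, and the ranges overlapped, from 0.814 to 1.05 and from 0.748 to 1.28.

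Proteasome transcripts were abundant in both libraries and took a smaller share of all transcripts in cKO than in Ctrl cells. Summed over the members they came to 7587 CPM [7558, 7617] in cKO and 8357 CPM [8330, 8384] in Ctrl cells, a ratio of 0.908 [0.903, 0.912]. The 14 constitutive core subunits summed to 4664 CPM in cKO and 5151 CPM in Ctrl, a ratio of 0.905, and the 17 cap subunits to 2238 and 2508 CPM, a ratio of 0.892. In these sums less RNA per cell of a gene cannot be told apart from fewer cells that use it. Because 3′ tags count transcripts and not fragments, levels of different members were set side by side without a correction for length. Differences between genes in capture or mapping of tags were not corrected, so CPM of different genes are only a rough measure of their levels. By this measure the members ran in cKO cells from 0.938 CPM for *Psmb9* to 510 CPM for *Psma7*, and in Ctrl cells from 0.752 to 575 CPM for the same 2 genes.

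**Figure D1:**
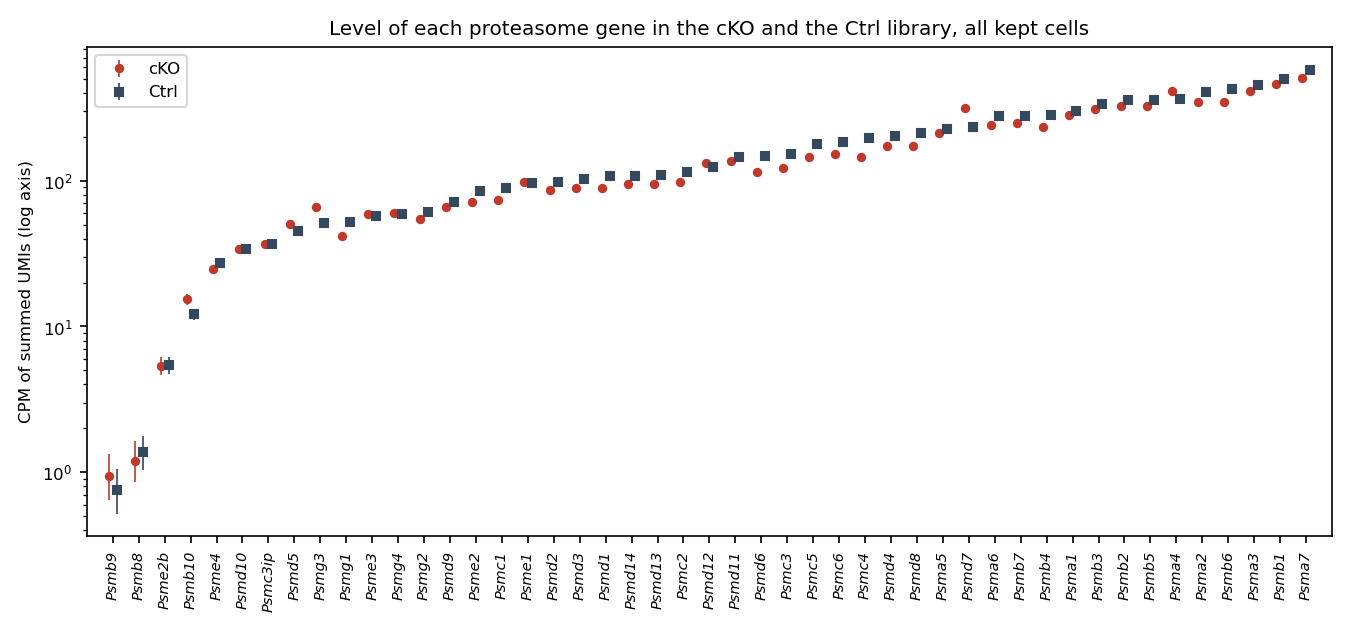
Level of each measured member in the cKO (circles) and the Ctrl library (squares), in CPM of the UMIs summed over all kept cells on a log axis, ordered by level, with 95% Poisson intervals that are mostly smaller than the symbols. Levels in cKO run from 0.938 CPM for Psmb9 to 510 CPM for Psma7, and the cKO symbol stands visibly above the Ctrl symbol for Psmd7, Psmg3, Psmb10 and Psma4.

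Single members followed the sum in most cases but not in all. The ratio of cKO over Ctrl was below 1 for 36 of the 47 members, against 46.4% of all measured genes, and the median log2 ratio was −0.16 for members and 0.03 for all measured genes. A member was counted as lower or higher when its ratio was past 1.2-fold and the counting interval left out 1. By this rule 11 members were lower, where 10.2% of all measured genes were, and 3 were higher, where 17.6% were. The 11 were *Psmc1*, *Psmc3*, *Psmc4*, *Psmc5*, *Psmc6*, *Psmd1*, *Psmd6*, *Psmd8*, *Psmb6*, *Psme2* and *Psmg1*, and the 3 were *Psmd7*, *Psmg3* and *Psmb10*. Among genes with at least 200 UMIs, which most members reach, 11 of 45 members were lower and 3 higher, where 10.8% of all such genes were lower and 19.3% higher. With the keep limit raised to 2500 genes per cell, 7 members were lower (10.4% of all measured genes) and 3 higher (16.9%).

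**Figure D2:**
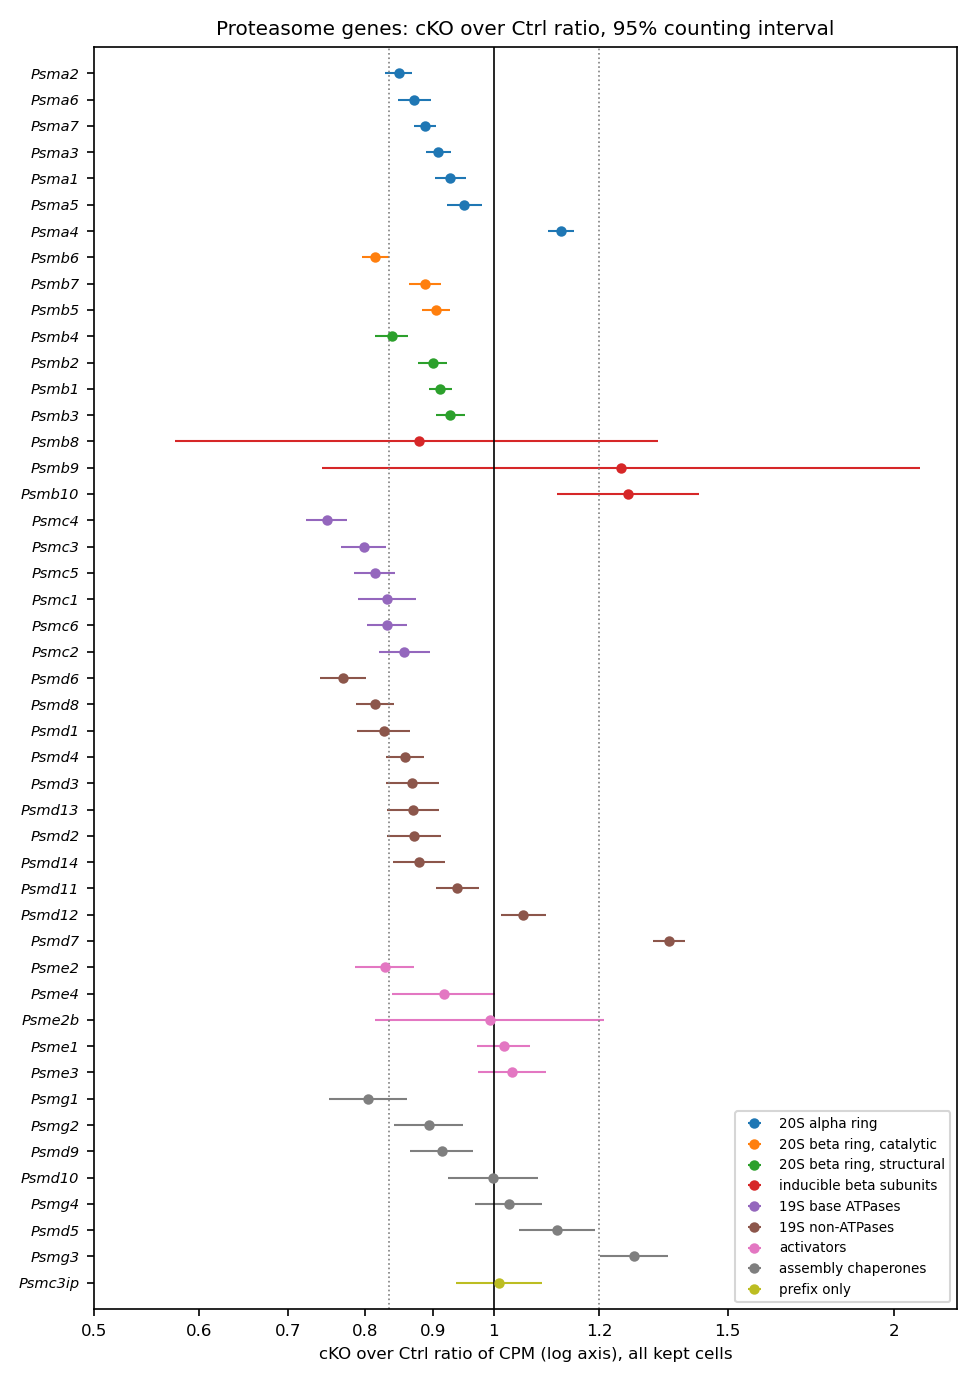
Ratio of cKO over Ctrl CPM for each measured member over all kept cells, on a log axis, coloured by subunit group, with 95% counting intervals (points and bars); the solid line marks 1 and the dotted lines 1.2-fold in each direction. The 6 base ATPases all lie below 1, from 0.748 for Psmc4 to 0.856 for Psmc2, while Psmd7 is the only cap subunit past 1.2-fold above 1, at 1.35.

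The α ring, which gates entry to the core, was the most abundant group, at 2413 CPM in cKO and 2605 CPM in Ctrl cells, a ratio of 0.926 [0.918, 0.935]. Its 7 subunits are present once per ring, yet their transcripts spread from 214 (*Psma5*) to 510 CPM (*Psma7*) in cKO and from 225 to 575 CPM in Ctrl for the same pair. None was past 1.2-fold over all kept cells. The lowest ratio was that of *Psma2*, with 345 CPM in cKO and 407 CPM in Ctrl (0.848 [0.828, 0.868]), a gene that overlaps another gene on its strand. *Psma4* alone was above 1, with 410 CPM in cKO and 365 CPM in Ctrl (1.12 [1.099, 1.15]). In Epi basal-like cells, defined below, *Psma4* passed the limit, with 433 CPM in cKO and 357 CPM in Ctrl (1.21 [1.12, 1.31]), but not under the second set of gates given there (1.15 [1.11, 1.19]).

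The 3 constitutive catalytic subunits of the β ring summed to 924 CPM in cKO and 1069 CPM in Ctrl cells (0.864 [0.852, 0.876]). *Psmb6*, which encodes the caspase-like site, was lower in cKO, at 349 CPM, than in Ctrl, at 429 CPM (0.814 [0.796, 0.833]). *Psmb7*, the trypsin-like site, had 249 CPM in cKO and 280 CPM in Ctrl (0.888), and *Psmb5*, the chymotrypsin-like site, had 326 and 361 CPM (0.904), both short of 1.2-fold. The order of the 3 was the same in both libraries, *Psmb6* above *Psmb5* above *Psmb7*. The 4 structural β subunits summed to 1326 CPM in cKO and 1477 CPM in Ctrl (0.898 [0.887, 0.909]), each below 1 and none past 1.2-fold. Among them *Psmb4* had the lowest ratio, with 235 CPM in cKO and 281 CPM in Ctrl (0.838), and *Psmb3* the highest, with 311 and 335 CPM (0.928).

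The inducible catalytic subunits, which replace the constitutive ones in the immunoproteasome, were rare. *Psmb10*, the inducible trypsin-like subunit (chr8:105935735-105938444, minus strand), had 524 UMIs in cKO and 534 in Ctrl cells, or 15.4 CPM [14.1, 16.7] and 12.2 CPM [11.2, 13.2], a ratio of 1.26 [1.12, 1.43]. *Psmb8*, the inducible chymotrypsin-like subunit, had 41 UMIs in cKO and 60 in Ctrl (1.202 and 1.37 CPM, ratio 0.879 [0.576, 1.33]). *Psmb9*, the inducible counterpart of *Psmb6*, had 0.938 CPM in cKO and 0.752 CPM in Ctrl (1.25 [0.742, 2.09]). For the last 2 genes a difference was not detectable at this depth. The *Psmb10* share of *Psmb10* plus *Psmb7* transcripts was 5.82% [5.35, 6.32] in cKO and 4.17% [3.83, 4.53] in Ctrl cells (exact Clopper-Pearson intervals). The matching share was 0.367% in cKO and 0.378% in Ctrl for *Psmb8* with *Psmb5*, and 0.268% and 0.175% for *Psmb9* with *Psmb6*. In barcodes with 10 to 100 UMIs, which hold free RNA and no cell, *Psmb10* stood at 22.8 CPM in the cKO and 15.2 CPM in the Ctrl library, both above its level in cells. The part of free RNA in the *Psmb10* difference was not tested. Subtracting 5% of each library's UMIs in that profile left its ratio on the same side of the limit. The 5% was assumed, and the true share was not measured.

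The ATPase ring of the 19S cap showed the lowest ratio of any group. Its 6 subunits, which unfold substrates and thread them into the core, summed to 737 CPM in cKO and 913 CPM in Ctrl cells (0.807 [0.795, 0.820]). Of the 6, 5 were lower past 1.2-fold, where 10.2% of all measured genes were. *Psmc4* (chr7:28041707-28050101, minus strand) had 146 CPM [142, 150] in cKO and 195 CPM [191, 199] in Ctrl, a ratio of 0.748 [0.723, 0.775]. This was the lowest ratio of all 47 members, and the most abundant ATPase transcript was *Psmc6* in cKO but *Psmc4* in Ctrl. *Psmc3* had 122 CPM in cKO and 152 CPM in Ctrl (0.798), and *Psmc5* had 145 and 178 CPM (0.813). *Psmc6* and *Psmc1* both had ratios of 0.831, at 153 against 184 CPM and at 74.0 against 89.1 CPM. *Psmc2* had the highest ratio of the group and was short of the limit, with 97.8 CPM in cKO and 114 CPM in Ctrl (0.856 [0.819, 0.895]). The group held its direction in each gated type, with summed ratios of 0.770 in HF WNThi-like, 0.785 in suprabasal-like, 0.822 in HF WNTlo-like and 0.851 in basal-like cells (types described below).

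The 11 non-ATPase subunits of the cap were the most uneven group. Together they had 1500 CPM in cKO and 1595 CPM in Ctrl cells (0.941 [0.930, 0.952]). Past 1.2-fold 3 were lower and 1 higher, where 10.2% and 17.6% of all measured genes were. *Psmd6*, a scaffold subunit of the lid, had 114 CPM in cKO and 148 CPM in Ctrl (0.770 [0.739, 0.801]). *Psmd8*, also of the lid, had 174 CPM in cKO and 214 CPM in Ctrl (0.814), and *Psmd1*, a large scaffold subunit of the cap, had 89.4 and 108 CPM (0.826). *Psmd1* reads can be shared with a gene that overlaps it on the same strand. In the other direction stood *Psmd7* (chr8:107580381-107588464, minus strand), the catalytically inactive partner of the deubiquitinase *Psmd14*. It had 10788 UMIs in cKO and 10240 in Ctrl cells although the cKO library was the smaller, or 316 CPM [310, 322] and 233 CPM [229, 238], a ratio of 1.35 [1.32, 1.39]. Its partner *Psmd14* had 95.2 CPM in cKO and 108 CPM in Ctrl (0.879 [0.840, 0.919]). Transcripts of the partners, which sit in the particle as a pair, thus differed in opposite directions, though *Psmd14* was short of 1.2-fold. *Psmd12*, another lid scaffold, was slightly above 1, with 132 CPM in cKO and 125 CPM in Ctrl (1.05 [1.01, 1.095]), and the other 5 were below 1 by less than 1.2-fold.

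The 5 measured activators outside the 19S cap summed to 259 CPM in cKO and 272 CPM in Ctrl cells (0.9504 [0.925, 0.977]). *Psme2*, which forms a heptameric activator ring with *Psme1*, had 70.9 CPM in cKO and 85.7 CPM in Ctrl (0.828 [0.786, 0.871]), whereas *Psme1* had 98.4 and 96.8 CPM (1.02 [0.972, 1.06]). *Psme2b* is a near copy of *Psme2* that overlaps other genes, and reads may be split between the copies, so both values are uncertain; *Psme2b* had 183 UMIs in cKO and 237 in Ctrl. *Psme3*, which encodes the nuclear activator, had 59.4 CPM in cKO and 57.5 CPM in Ctrl (1.03), the highest ratio of the group. *Psme4*, the large single-chain activator, had 24.9 CPM in cKO and 27.1 CPM in Ctrl (0.917).

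Assembly chaperones, which build the core and the base and are absent from the finished particle, summed to 373 CPM in cKO and 375 CPM in Ctrl cells (0.995 [0.972, 1.02]). Their sum hides opposite differences. *Psmg3* had 65.8 CPM [63.1, 68.6] in cKO and 51.6 CPM [49.5, 53.8] in Ctrl (1.28 [1.203, 1.35]), while *Psmg1* had 41.6 and 51.7 CPM (0.804 [0.752, 0.860]). In the assembly of the core, *Psmg3* works in a pair with *Psmg4*, which had 60.2 CPM in cKO and 58.7 CPM in Ctrl (1.03). *Psmg1* works in a pair with *Psmg2*, which had 54.9 CPM in cKO and 61.5 CPM in Ctrl (0.893). *Psmg3* overlaps another gene on its strand. Among the chaperones of the base, *Psmd5* had 50.5 CPM in cKO and 45.3 CPM in Ctrl (1.12 [1.05, 1.19]), *Psmd9* had 65.8 and 72.0 CPM (0.914), and the X-linked *Psmd10* had 33.9 and 34.0 CPM (0.999). *Psmc3ip*, the match that is no proteasome gene, had 36.9 CPM in cKO and 36.6 CPM in Ctrl (1.01).

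Cells were then split by marker UMIs into Epi basal-like, Epi suprabasal-like, HF WNThi-like and HF WNTlo-like cells, after the study's names for epidermal layers and for hair follicle cells with high or low WNT signaling. Among markers the gates did not use, 7 of 8 were highest in their own type in both libraries for Epi basal, HF WNThi and HF WNTlo, but for Epi suprabasal only 5 of 8 in cKO and 3 of 8 in Ctrl. The gates had a fault, seen only in the data: *Dcn*, listed as a fibroblast gene, made up 96.9% of fibroblast-list UMIs in the cKO and 97.7% in the Ctrl cells set aside as another cell type. Likewise *Krtdap*, listed as suprabasal, made up 83.1% in cKO and 84.2% in Ctrl of that list's UMIs in Epi basal-like cells. Values below are therefore also given for gates without these 2 genes, chosen after seeing the data, under which 7 of 8 unused basal, 6 of 8 suprabasal, 8 of 8 WNThi and 8 of 8 WNTlo markers were highest in their own type in each library. The gated cells were 281 cKO and 426 Ctrl Epi basal-like, 542 and 707 Epi suprabasal-like, 88 and 50 HF WNThi-like, and 592 and 585 HF WNTlo-like cells.

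Markers of other cells were few. Over all kept cells, immune markers summed to 0.440 CPM in cKO and 0.524 CPM in Ctrl with 1 of 5 at 0, endothelial markers to 5.19 and 4.54 CPM, Schwann and neural crest markers to 4.84 and 3.94 CPM, and melanocyte markers to 3.78 and 19.1 CPM. The 6 fibroblast markers summed to 646 CPM in cKO and 741 CPM in Ctrl, mostly *Dcn*. The part of these cells in the member ratios was not tested.

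Of 43 members measured in all 4 gated types, 27 had a ratio below 1 in each (21.1% of all genes measured in the 4) and 5 above 1 in each (20.1%), while the other 11 had ratios on both sides of 1. Among genes with at least 200 UMIs in each type, 17 of 21 members were below 1 in each, against 34.5% of all such genes. The 5 above 1 were *Psmd5*, *Psmg3*, *Psmd7*, *Psma4* and *Psmd12*. No member had intervals on opposite sides of 1 in different types. The intervals lay below 1 in all 4 types for 2 members, *Psmb4* and *Psmc4* (1.84% of all genes), and above 1 for *Psmd7* (3.5%). With the gates that left out *Dcn* and *Krtdap*, 45 members were measured in all 4 types, 32 had ratios below 1 in each (21.7% of all genes) and 6 above 1 (24%), *Psmb10* being added. The intervals then lay below 1 in all 4 types for 12 members (3.6%), again above 1 only for *Psmd7* (5.74%), and again on opposite sides for 0. With at least 200 UMIs in each type, 12 of 41 members had intervals below 1 and 1 above, where 9.62% and 12.4% of all such genes had. The types are cut from the same 2 libraries, so that they are not independent repeats of the comparison.

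**Figure D3:**
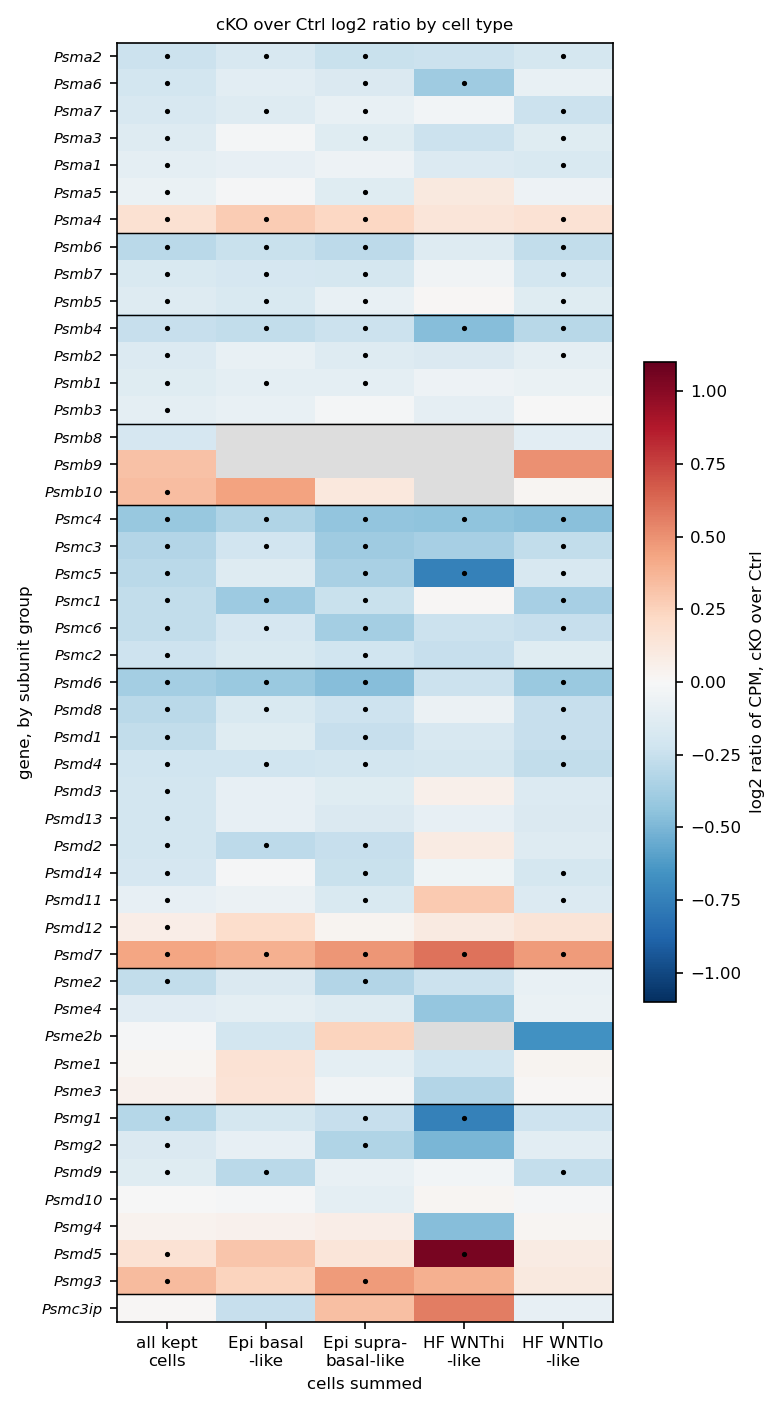
Log2 ratio of cKO over Ctrl CPM for each measured member (rows, grouped by subunit group between black lines) over all kept cells and in each of the 4 gated types (columns), with dots where the counting interval leaves out 1 and grey where fewer than 20 UMIs were counted. Psmd7 is red and Psmc4 blue with a dot in every column, and Psmd5 in HF WNThi-like cells is the strongest single cell of the map at a ratio of 2.06.

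In Epi basal-like cells, the progenitor layer, 6 of 45 members were lower (6.63% of all measured genes) and 2 higher (9.91%), with a median log2 ratio of −0.11 for members and 0.00 for all genes. Among genes with at least 200 UMIs, 6 of 42 members were lower and 2 higher, where 10.3% and 14.9% of all such genes were. The 5 lowest ratios belonged to *Psmd6*, with 106 CPM in cKO and 141 CPM in Ctrl (0.752 [0.652, 0.865]), *Psmc1*, with 69.7 and 91.9 CPM (0.759), *Psmc4*, with 155 and 196 CPM (0.795), *Psmd9*, with 66.2 and 81.4 CPM (0.814), and *Psmd2*, with 83.5 and 102 CPM (0.820). *Psmb4* was the other lower member (0.827). Among the 5 highest, *Psmd7* had 278 CPM in cKO and 212 CPM in Ctrl (1.31 [1.19, 1.44]), and *Psma4* was the other that passed. *Psmb10* (12.04 and 8.86 CPM, 1.36 [0.830, 2.22]), *Psmd5* (49.2 and 39.9 CPM, 1.23 [0.980, 1.55]) and *Psmg3* (59.5 and 50.1 CPM, 1.19 [0.964, 1.46]) had intervals that held 1. The other gates gave 1437 cKO and 2353 Ctrl basal cells, with 8 of 46 lower (10.1%) and 3 higher (16%). Of the members past the limit under the first gates, *Psmd2* (0.887 [0.825, 0.954]), *Psmd9* (0.938 [0.863, 1.02]) and *Psma4* then fell short of it, while *Psmd6* (0.786), *Psmc1* (0.824), *Psmc4* (0.777), *Psmb4* (0.829) and *Psmd7* stayed past it.

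In Epi suprabasal-like cells, which have left the basal layer to differentiate, 8 of 45 members were lower (8.85% of all measured genes) and 2 higher (14.3%), with a median of −0.15 for members and 0.03 for all genes. Among genes with at least 200 UMIs, 8 of 44 members were lower and 2 higher, where 12.3% and 17.7% of all such genes were. *Psmd6* had the lowest ratio, with 122 CPM in cKO and 168 CPM in Ctrl (0.723 [0.658, 0.793]). *Psmd7* had 403 CPM in cKO and 288 CPM in Ctrl (1.401 [1.32, 1.49]), and *Psmg3* had 85.4 and 61.6 CPM (1.39 [1.22, 1.58]). Of the catalytic subunits *Psmb6* was lower, with 346 CPM in cKO and 424 CPM in Ctrl (0.818 [0.773, 0.865]), and of the ATPases 4 of 6 were. The other gates gave 282 cKO and 399 Ctrl suprabasal cells, with 13 of 45 lower (7.87%) and 2 higher (13.9%), and a *Psmd7* ratio of 1.46. With TMM scaling factors, which moved all ratios of the type down, 16 members were lower (11.5% of all measured genes) and 2 higher (12.4%) under the first gates.

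HF WNThi-like cells were the fewest, and held 2.46% of kept cells in cKO and 1.12% in Ctrl. Here 5 of 43 members were lower (5.33% of all measured genes) and 2 higher (5.61%). Among genes with at least 200 UMIs, 4 of 21 members were lower and 1 higher, where 10.9% and 11.4% of all such genes were. Marker levels in these cells differed between the libraries, and within each list in both directions. Of the WNThi markers, *Dkk4* had 101 CPM in cKO and 62.4 CPM in Ctrl, *Fgf20* 65.7 and 28.5 CPM and *Sp5* 64.6 and 23.2 CPM. Others of that list were lower in cKO, with 269 and 314 CPM for *Shh*, 118 and 146 CPM for *Bmp2* and 55.9 and 69.6 CPM for *Edar*. Of the WNTlo markers, *Krt17* had 1100 and 2059 CPM, *Lhx2* 200.4 and 323 CPM and *Tgfb2* 84.3 and 134 CPM. In the other direction, *Pthlh* had 31.8 and 16.1 CPM and *Fst* 115 and 98.1 CPM. The part of such a difference in make-up in the member ratios was not tested. *Psmg1* had the lowest ratio, on 34 UMIs in cKO and 35 in Ctrl (0.596 [0.361, 0.985]), and *Psmc5* nearly the same, with 119 CPM in cKO and 200 CPM in Ctrl (0.598 [0.455, 0.785]). *Psmd5* had the highest, on 57 UMIs in cKO and 17 in Ctrl (2.06 [1.18, 3.77]), and *Psmd7* followed with 313 CPM in cKO and 207 CPM in Ctrl (1.51 [1.22, 1.89]).
The other gates gave 316 cKO and 272 Ctrl cells, with 15 of 45 lower (7.29%) and 3 higher (10%). Under them *Psmc5* stood at 131 CPM in cKO and 182 CPM in Ctrl (0.722 [0.631, 0.826]), *Psmg1* at 38.6 and 49.8 CPM (0.775) and *Psmd7* at 319 and 236 CPM (1.35), while *Psmd5* had an interval that held 1 (1.202 [0.922, 1.57]). *Psmb10*, too rare for a ratio under the first gates, had 11.99 CPM in cKO and 5.42 CPM in Ctrl (2.21 [1.18, 4.35]). The *Psmd5* and *Psmg1* values in these cells thus rest on few UMIs and on the choice of gate. Under the first gates, without cells holding *Mki67* or *Top2a* UMIs, 1 of 35 measured members was lower (3.87% of all measured genes) and 0 were higher (4.12%). With equal weight for each cell, where size alone was counted, 17 were past 1.2-fold lower (29.0% of all genes).

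HF WNTlo-like cells had 8 of 47 members lower (10.1% of all measured genes) and 1 higher (8.91%), with a median log2 ratio of −0.14 for members and −0.04 for all genes. Among genes with at least 200 UMIs, 8 of 43 members were lower and 1 higher, where 13.7% and 11.7% of all such genes were. The higher one was *Psmd7*, with 301 CPM in cKO and 217 CPM in Ctrl (1.39 [1.29, 1.49]). *Psmc4* had 150 CPM in cKO and 207 CPM in Ctrl (0.727 [0.664, 0.795]). The extreme ratios of the type were those of rare genes whose intervals held 1, *Psme2b* with 17 UMIs in cKO and 27 in Ctrl (0.631) and *Psmb9* with 17 and 12 (1.42 [0.639, 3.26]). The other gates gave 646 cKO and 677 Ctrl cells, with 10 of 47 lower (10.1%) and 1 higher (9.09%). With TMM factors 4 members were lower (7.35% of all measured genes) and 1 higher (10.95%) under the first gates.

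Levels were next compared between types within each library, and a direction was counted only where both libraries gave it with intervals that left out 1. In Epi suprabasal-like against Epi basal-like cells, 11 of 45 members were higher (12.5% of all measured genes) and 1 lower (14.3%). *Psmb10* stood out, with 25.7 CPM in suprabasal-like and 12.04 CPM in basal-like cells of the cKO library (2.14 [1.46, 3.20]) and 23.8 and 8.86 CPM in the Ctrl library (2.69 [1.88, 3.92]). *Psmd12* had 173 CPM in suprabasal-like and 112 CPM in basal-like cKO cells (1.56) and 170 and 97.7 CPM in Ctrl cells (1.74). *Psmd7* was higher by 1.45-fold in the cKO and 1.36-fold in the Ctrl library, *Psmg3* by 1.44-fold and 1.23-fold, and *Psmc5* by 1.23-fold and 1.42-fold. The other 6 were *Psmd5*, *Psmd3*, *Psmb3*, *Psmd6*, *Psmb4* and *Psma7*, and *Psmd8* was the member that was lower. *Psmb10*, *Psmb3*, *Psmc5*, *Psmd12* and *Psmd7* kept their direction under each of the 4 alternatives tried, which were thinning, another total, a stricter basal gate and the gates without *Dcn* and *Krtdap*. With thinning or the other total those 5 were the only higher members (8.48% and 9.68% of all measured genes). With the other total, which left out mitochondrial, ribosomal and the top 50 genes, 5 members were also lower (18.6%): *Psmb1*, *Psmb6*, *Psmc4*, *Psmd8* and *Psmd9*.

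**Figure D4:**
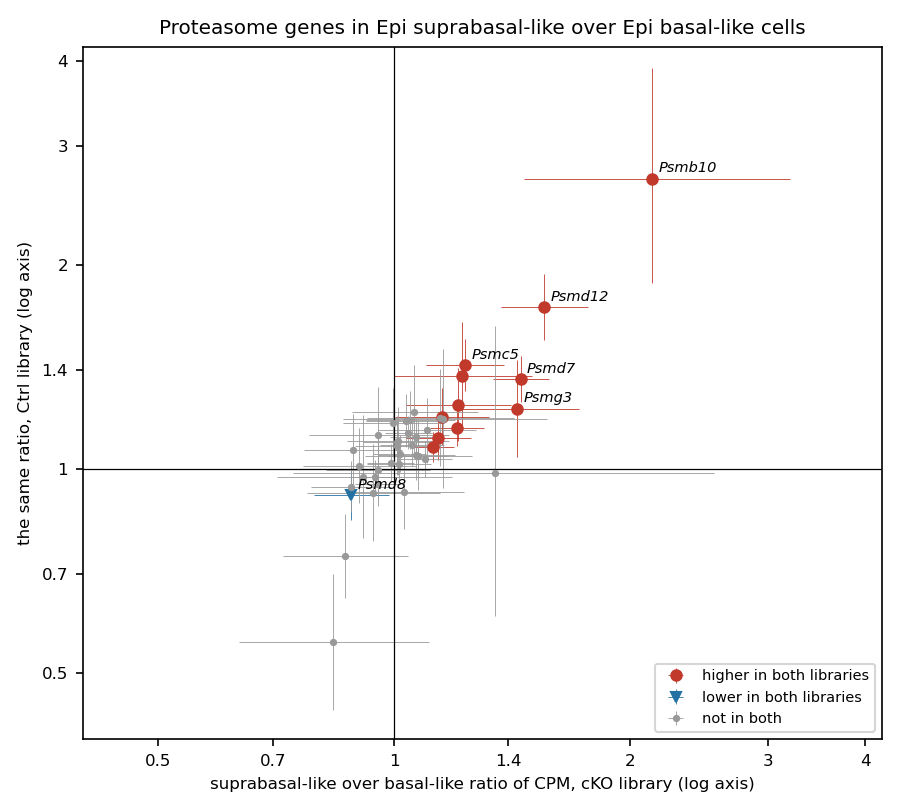
Ratio of Epi suprabasal-like over Epi basal-like CPM for each member in the cKO library (horizontal) and the Ctrl library (vertical), both on log axes, with 95% counting intervals; large circles mark members higher in both libraries, the triangle the member lower in both, and small grey points the rest. Psmb10 lies farthest out at 2.14 in cKO and 2.69 in Ctrl, followed by Psmd12 at 1.56 and 1.74.

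In HF WNTlo-like against Epi basal-like cells, 7 of 46 members were higher (19.7% of all measured genes) and 2 lower (6.23%). *Psmd12* was again among the higher, with 151 CPM in WNTlo-like and 112 CPM in basal-like cKO cells (1.35) and 137 and 97.7 CPM in Ctrl cells (1.4003). *Psmb8* was the rarest of the 7, with 24 UMIs in WNTlo-like and 3 in basal-like cKO cells and 26 and 3 in Ctrl cells, ratios of 4.07 [1.24, 21.1] and 6.68 [2.05, 34.5]. *Psme2* was lower, with 56.7 CPM in WNTlo-like and 79.3 CPM in basal-like cKO cells (0.715) and 60.0 and 88.4 CPM in Ctrl cells (0.679), and *Psmb3* was the other lower member. With the other total 3 were higher (14.7% of all measured genes) and 8 lower (8.78%), and with the gates without *Dcn* and *Krtdap* 13 were higher (29.8%) and 3 lower (7.98%). In HF WNThi-like against Epi basal-like cells, 0 of 45 members were higher (4.49%) and 0 lower (2.53%), on far fewer cells. With the gates without *Dcn* and *Krtdap* 6 were higher (11.6%), *Psma6*, *Psmb7*, *Psmc1*, *Psmc6*, *Psmd4* and *Psmd8*, and 0 lower (7.76%).

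Shares of cells with a UMI gave the same picture for the inducible subunits. *Psmb10* was found in 20.8% [17.5, 24.5] of cKO and 21.4% [18.4, 24.6] of Ctrl suprabasal-like cells, and in 10.3% [7.02, 14.5] of cKO and 7.51% [5.19, 10.4] of Ctrl basal-like cells. Median depths were 9040 UMIs in cKO and 9525 UMIs in Ctrl suprabasal-like cells and close to 9167 UMIs in both sets of basal-like cells. *Psmb8* was found in 3.72% of cKO and 4.27% of Ctrl HF WNTlo-like cells, against 1.07% and 0.704% of basal-like cells, and *Psmb9* in 2.87% and 2.05% against 0.356% and 0.235%. The HF WNTlo-like cells were no deeper, with medians of 8429 UMIs in cKO and 8589 UMIs in Ctrl. In the free RNA of both libraries *Psmb8* stood at 0.268 CPM in cKO and 0.778 CPM in Ctrl, under its 4.32 and 4.67 CPM in HF WNTlo-like cells. *Psmb10* stood there at 22.8 CPM in cKO and 15.2 CPM in Ctrl, above its level in basal-like cells and below its 25.7 and 23.8 CPM in suprabasal-like cells. No cell type that should lack these genes was at hand in numbers, so the shares in basal-like cells may themselves be background.

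**Figure D5:**
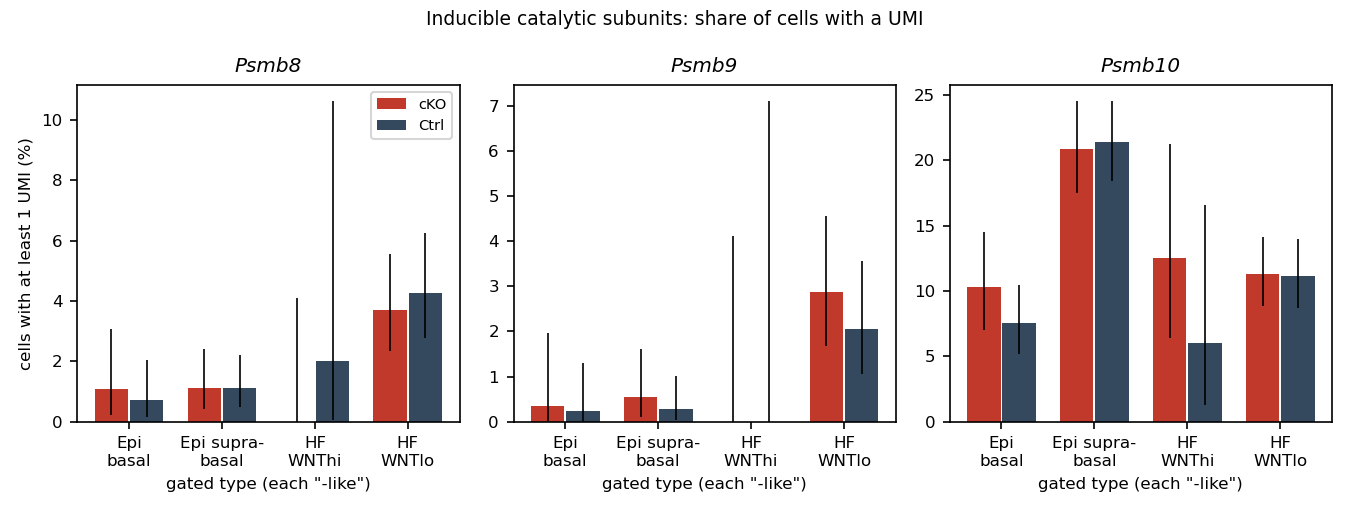
Share of cells with at least 1 UMI of Psmb8, Psmb9 and Psmb10 in each gated type, in percent, for the cKO (left bars) and the Ctrl library (right bars), with exact 95% binomial intervals; the vertical scales differ between panels and start at 0. Psmb10 reaches 20.8% in cKO and 21.4% in Ctrl suprabasal-like cells, and Psmb8 3.72% and 4.27% in HF WNTlo-like cells.

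Within Epi basal-like cells, members were compared between the third of cells with the largest and the third with the smallest share of UMIs on cell cycle genes, 93 cells each in cKO and 142 each in Ctrl. These sets are ranges of a score and not cell types, and they differ in depth, with medians of 12337 UMIs in the cells with the largest and 7594 UMIs in those with the smallest G2 and M phase share in cKO, and 11419 and 7800 UMIs in Ctrl. Of 44 members, 1 was higher in both libraries with the G2 and M phase share (5.83% of all measured genes) and 0 lower (3.21%), and 2 were higher with the S phase share (4.89%) and 0 lower (2.7%). *Psmb6* was higher in the cells with the largest G2 and M phase share, at 417 CPM against 295 CPM in the cKO library (1.41 [1.201, 1.66]) and 478 against 360 CPM in the Ctrl library (1.33 [1.18, 1.497]). *Psmc3ip* was higher with the S phase share, at 43.2 against 20.7 CPM in cKO (2.09 [1.19, 3.77]) and 47.2 against 19.9 CPM in Ctrl (2.37 [1.504, 3.83]). *Psmc4* was higher with the S phase share by 1.29-fold in cKO and 1.35-fold in Ctrl, but not in both libraries when 70 cells in cKO and 106 in Ctrl were taken at each end. The summed members differed little, by 1.03-fold in cKO and 1.07-fold in Ctrl with the G2 and M phase share. Cycle genes also differed between the libraries: over all kept cells the S phase list summed to 1556 CPM in cKO and 1699 CPM in Ctrl (0.916) and the G2 and M phase list to 2622 and 2408 CPM (1.09). Without cells holding *Mki67* or *Top2a* UMIs the median log2 ratio over all kept cells was −0.15 for members and 0.03 for all measured genes. The part of cell cycle differences in the ratio of each member was not tested.

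Genes that work with the proteasome but carry other names were measured in the same way. Their counts over all kept cells stand beside the same 10.2% of all measured genes lower and 17.6% higher. Of 11 subunits and assembly factors outside the 6 prefixes, 2 were lower past 1.2-fold and 0 higher. The 11 summed to 1957 CPM in cKO and 1857 CPM in Ctrl, a ratio of 1.05 [1.04, 1.06] on the other side of 1 from the sum of the members, with a median log2 ratio of −0.06. *Uchl5*, a deubiquitinase bound to the cap, had 73.3 CPM in cKO and 92.1 CPM in Ctrl (0.796), and *Txnl1*, a thioredoxin-like protein bound to the cap, had 141 and 172 CPM (0.820). Among 6 genes for ubiquitin and its activating enzymes, *Uba1*, the main activating enzyme, had 74.9 CPM in cKO and 97.5 CPM in Ctrl (0.768 [0.731, 0.807]), while the list as a whole summed to 9533 and 9049 CPM (1.05). The 13 shuttle and segregase factors summed to 736 CPM in cKO and 805 CPM in Ctrl (0.915 [0.90004, 0.930]), with a median log2 ratio of −0.12. Over all kept cells 0 were lower and 1 was higher, *Ubqln2*, a carrier of ubiquitylated proteins, with 30.2 CPM in cKO and 25.05 CPM in Ctrl (1.204 [1.105, 1.31]). Within types, 2 of 12 measured factors were lower among Epi basal-like cells (6.63% of all measured genes there) and 3 of 13 among suprabasal-like cells (8.85%). Among WNThi-like cells 1 of 11 was lower (5.33%), and among WNTlo-like cells 4 of 13 were (10.1%). Higher were 1 among WNThi-like cells (5.61%) and 0 among basal-like (9.91%), suprabasal-like (14.3%) and WNTlo-like cells (8.91%).

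Among 13 regulators of proteasome genes, 1 was lower and 1 higher, where 10.2% and 17.6% of all measured genes were. *Ngly1*, the enzyme that deglycosylates the *Nfe2l1* product on its way to the nucleus, had 15.01 CPM in cKO and 20.6 CPM in Ctrl (0.730 [0.654, 0.815]). *Nfe2l2*, the master regulator of the antioxidant response, had 44.3 CPM in cKO and 33.0 CPM in Ctrl (1.34 [1.25, 1.45]). *Nfe2l1* itself had a ratio of 0.967. Of 15 interferon and antigen presentation genes, 12 were measured, 0 were lower and 4 higher, against the same shares: *Irf9*, *Isg15*, *H2-K1* and *H2-D1*. *Irf9*, part of the interferon-activated transcription complex, had 4.57 CPM in cKO and 2.85 CPM in Ctrl (1.60 [1.26, 2.05]). *H2-D1*, a class I antigen presentation molecule, had 46.0 CPM in cKO and 34.9 CPM in Ctrl (1.32 [1.23, 1.42]).

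Gene structure varied among the members, with a median of 8 coding exons and a range from 1 to 46 in the GENCODE vM21 models, which matched all 49. Over all measured genes the median log2 ratio of cKO over Ctrl was 0.20 for genes with 2 to 3 coding exons, 0.06 for 4 to 6, −0.01 for 7 to 9 and −0.04 for 10 to 14. Members with the same numbers of exons had medians of 0.04 (3 members), −0.13 (8 members), −0.17 (14 members) and −0.20 (18 members), lower in each range. As a description across genes, which are not independent, the Spearman correlation of coding exon number with the log2 ratio was −0.31 over 47 members and −0.22 over 12441 measured genes. For coding length it was −0.39 over members and −0.02 over measured genes. For the longest coding exon it was −0.09 and 0.26.

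Free RNA carried the same sign as the cells. In barcodes with 10 to 100 UMIs the members summed to 7831 CPM in the cKO and 8838 CPM in the Ctrl library. There *Psmc4* had 135 CPM in the cKO and 187 CPM in the Ctrl library, and *Psmd7* had 262 and 200 CPM. These values come from the same suspensions and are not independent of the cells.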

How the data were processed

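The deposited tables hold whole-number UMI counts per gene and barcode for all possible barcodes, which the authors made from 10x Genomics 3′ (version 2 chemistry) reads on mm10 with Cell Ranger 2.0, as named in the submitters' processing notes; the annotation release is not given in the sources used here. No count was normalized before deposit, and 0 columns were left unmapped.

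Barcodes with at least 1800 genes were kept, UMIs were summed per library and gated type, and CPM were computed on the summed total with exact Poisson 95% intervals. Ratios of cKO over Ctrl carry exact conditional binomial intervals. A gene was measured if it reached 20 UMIs in the 2 libraries together. With 1 library per group no test was run. No doublet caller was run: leaving out the 4% of cells with the most UMIs was an alternative. Counting code was tested on simulated data.

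The members, gates and gene lists were chosen with earlier results of these data known. Values were given for the catalytic and inducible β subunits, the 5 highest and 5 lowest ratios in Epi basal-like cells, the extremes of each subunit group and gated type, and, of the other lists, genes past 1.2-fold; *Psmd14*, *Psmg2*, *Psmg4*, *Psmd10* and the remaining lower members of the ATPase and non-ATPase groups were named after their values were seen. 16 alternatives were planned. Tools were Python 3.11.15, numpy 2.4.6, scipy 1.17.1, pandas 2.3.3, matplotlib 3.10.9, R 4.3.3 and edgeR 4.0.16, the last for TMM factors only.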

Additional observations from a re-analysis of the deposited data

Results flagged for a closer look

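Merkel-like cells, which none of the comparisons used, were flagged because proteasome transcripts were found in them above the limit that a count of 0 allows. Any type that holds these abundant transcripts would pass that limit, so the flag shows nothing particular to Merkel-like cells. The members summed to 8053 CPM [7588, 8539] in the 18 cKO cells and 9080 CPM [8619, 9559] in the 22 Ctrl cells, against limits of 21.6 and 18.7 CPM. In the gated types the sums ran from 7497 CPM in basal-like to 7996 CPM in suprabasal-like cells of the cKO library. In the Ctrl library they ran from 7999 to 8687 CPM in the same types. The difference between the libraries was not tested.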

How the results depend on the processing

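Of 848 values under alternatives, 0 moved a result past the limit to the other side of 1. Short of the limit, 12 of 616 single-gene values crossed 1, all of *Psmb8*, *Psmc3ip* and *Psme2b*; *Psmb8* over all kept cells, at 0.879, ran from 0.629 to 1.46. For single genes 570 stayed on their side of the limit, 22 lost it and 24 gained it, and of the counts and medians 193 stayed and 39 moved. The median log2 ratio of members stayed below 0 throughout, from −0.20 to −0.14 over all kept cells, −0.21 to −0.10 in Epi basal-like, −0.18 to −0.13 in Epi suprabasal-like, −0.26 to −0.07 in HF WNThi-like and −0.18 to −0.09 in HF WNTlo-like cells. The counts that moved were these, and the cause was not tested. Where given, parentheses hold the share of all measured genes that met the same rule, which with equal weight was size alone. Over all kept cells, 7 members (10.4%) in place of 11 (10.2%) were lower with at least 2500 genes per cell. In Epi basal-like cells, in place of 2 higher (9.91%), 1 was with at least 2500 genes (9.5%) or with a keratin limit of 0.5% (10.5%). Without *Mki67* or *Top2a* cells 1 was (6.5%). With thinning to 5500 UMIs 4 were (8.26%), and with equal weight per cell 4 (24.1%). In Epi suprabasal-like cells, in place of 8 lower (8.85%), 16 were with TMM factors (11.5%) or without *Mki67* or *Top2a* cells (7.38%). With the median of ratios 15 were (10.4%), with at least 1000 genes 14 (9.70%) and with the gates without *Dcn* and *Krtdap* 13 (7.87%). With thinning 1 (11.5%) in place of 2 (14.3%) was higher. In HF WNThi-like cells, in place of 5 lower (5.33%), 10 were with stricter follicle gates (5.82%) and 9 without the 4% of cells with the most UMIs (6.18%). Without *Mki67* or *Top2a* cells 1 was (3.87%), with the gates without *Dcn* and *Krtdap* 15 (7.29%) and with equal weight 17 (29.0%). In place of 2 higher there (5.61%), 1 was with the stricter gates (5.25%), without the top 4% (5.21%) or with at least 200 UMIs per gene (11.4%). Without *Mki67* or *Top2a* cells 0 were (4.12%), and with equal weight 4 (28.7%). In HF WNTlo-like cells, in place of 8 lower (10.1%), 4 were with TMM factors (7.35%) or the median of ratios (7.86%). The total without mitochondrial, ribosomal and the top 50 genes also gave 4 (7.66%). With equal weight 2 (19.7%) in place of 1 (8.91%) were higher. For levels over Epi basal-like cells, in place of 11 higher (12.5%) and 1 lower (14.3%) in Epi suprabasal-like cells, there were 5 (8.48%) and 0 (9.87%) with thinning. The other total gave 5 (9.68%) and 5 (18.6%), and the gates without *Dcn* and *Krtdap* 17 (15.7%) and 2 (21.7%). In HF WNThi-like cells, 6 (11.6%) in place of 0 (4.49%) were higher with those gates. In HF WNTlo-like cells, in place of 7 higher (19.7%), 3 were with the other total (14.7%) or a keratin limit of 1.2% (17.8%) and 13 with those gates (29.8%). In place of 2 lower (6.23%), 1 was with thinning (5.41%) and 8 with the other total (8.78%). With 70 cKO and 106 Ctrl cells at each end of the score, 1 in place of 2 members was higher with the S phase share. No paired analysis was possible because each group has 1 library, and for the same reason no library could be left out.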
